A study of Mus musculus with 2 samples.

Results

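The genes described here are 10 core genes of the NF-κB pathway, chosen by name for their role with earlier results of these data known. They are the Rel family subunits Nfkb1, Nfkb2, Rel, Rela and Relb, the inhibitors Nfkbia, Nfkbib and Nfkbie, and the kinases Ikbkb and Chuk. The platform's annotation named at least one single-gene probe set for 8 of the 10, with 15 probe sets in all, out of 12393 genes named on the array. Nfkb1 and Chuk were not analysed here.

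The study compared 2 mature B cell populations of the mouse spleen on 1 Affymetrix array each. Follicular B cells, which recirculate, were sorted as CD23 high and CD21 intermediate, and marginal zone B cells, which stay beside the marginal sinus, as CD23 intermediate and CD21 high. Per the labels' protocols, both samples came from spleens of 3 wild-type female C57BL/6 mice, no treatment is given, and sorted cells were pooled before about 100 ng of RNA was amplified in a 2-cycle labelling. The labels do not say whether the same mice gave both populations, and the pool hides any variation between mice. Age is not given in the sources used here.

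NF-κB factors are dimers of Rel family proteins. In a resting cell, inhibitors of the IκB family hold them in the cytoplasm. In the classical arm, antigen receptor or Toll-like receptor signals activate the IκB kinase, which marks IκB for destruction and frees dimers of Rela or Rel. In the alternative arm, receptors such as the BAFF receptor and CD40 lead to processing of the Nfkb2 precursor, which frees dimers with Relb. NF-κB also drives transcription of Nfkbia, Nfkb2 and Rel, so that the pathway feeds back on its own components. It sustains survival of mature B cells, and mice that lack certain subunits have few marginal zone B cells.

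The sequences before the start sites of these genes bear on that feedback. A table of RefSeq promoters (build GRCm38.p6) matched 7 of the 10 genes, without Nfkb1, Relb and Ikbkb. The κB consensus decamer was searched on both strands in the 250 bases upstream of each start. A match was present for 4 of the 7 genes, Nfkbia, Nfkb2, Rel and Nfkbie, and absent for Rela, Nfkbib and Chuk. Of all 32851 promoter windows, 3.90% held a match, and of all 27025 genes with a window, 4.46% did. The 110 bases before the start are shown for the 4 genes with a match. Capitals mark matched bases, overlapping matches are joined, and each line is read 5′ to 3′ on the gene's own strand.
Nfkbia, chr12:55492648-55492757, minus strand: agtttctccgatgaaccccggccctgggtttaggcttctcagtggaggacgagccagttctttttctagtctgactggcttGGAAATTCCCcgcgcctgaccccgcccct
Nfkb2, chr19:46304627-46304736, plus strand: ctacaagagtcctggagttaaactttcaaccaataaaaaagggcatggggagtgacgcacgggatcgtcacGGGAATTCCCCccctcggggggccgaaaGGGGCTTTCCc
Rel, chr11:23770970-23771079, minus strand: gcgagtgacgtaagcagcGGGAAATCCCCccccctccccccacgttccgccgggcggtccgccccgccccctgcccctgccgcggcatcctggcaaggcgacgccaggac
Nfkbie, chr17:45555590-45555699, plus strand: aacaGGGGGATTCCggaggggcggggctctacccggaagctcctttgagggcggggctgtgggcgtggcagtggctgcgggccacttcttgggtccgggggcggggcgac

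The Nfkbia match lay 29 to 20 bases before the start and read GGGAATTTCC on the opposite strand. In Rel the matches overlapped between 92 and 82 bases before the start. Nfkb2 had a match pair that overlapped between 39 and 29 bases and another 11 to 2 bases before this start, and 1 match before each of its 2 other listed starts. The Nfkbie match was 106 to 97 bases upstream. A match is a description of letters and does not show that a factor was bound in these cells.

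Signals below are deposited MAS5 intensities scaled to a common mean over both arrays, in arbitrary units. Values below 12.7, the median of all signals, were raised to that floor before a ratio was taken. A probe set is called measured when at least 1 array exceeded the floor. A log2 ratio is marginal zone over follicular, so a negative value means a lower marginal zone signal. There was 1 array per population and hence no replicate, no test between them and no p-value. The one repeat measurement was the spread of different probe sets of the same gene, which had a pooled SD of 0.43 on the log2 scale over 2622 genes and covers probe behaviour, not mice or sorts. Signals of different probe sets were not compared with each other, since probes differ in brightness. In sorted bulk RNA, fewer cells of a type and less RNA per cell cannot be told apart.

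The arrays had medians of 12.8 and 12.6 and were scaled by factors of 1.01 and 0.990. The sort gate was visible in Fcer2a, which encodes CD23, at 726.8 in follicular and 89.6 in marginal zone cells, and in Cr2, which encodes CD21, at 277.9 and 889.9. B cell markers were present on both arrays, with 6 of 7 measured and summed signals of 4514 and 3969. Of 14 macrophage and monocyte markers, 8 were measured, each with the higher signal on the marginal zone array, as had 47.8% of all measured genes. Among the 8, Cd5l, C1qb, Cd68 and Cd14 were under the floor on the follicular array. They counted as measured only through the marginal zone array and so could only come out higher there. Over all 14 genes the signals summed to 112.9 in follicular and 219.1 in marginal zone cells. The other 6 (C1qa, C1qc, Itgam, Fcgr1, Marco and Siglec1) were under the floor on both arrays. Macrophages also express NF-κB genes, and the part of these markers in the values below was not tested. Plasma cell markers summed to 544.8 and 802.0, of which Xbp1 gave 396.6 and 659.0, while Sdc1 went the other way at 68.3 and 4.4. For T cells, NK cells, dendritic cells, granulocytes, erythroid cells and platelets, and stroma, sums lay between 31.8 and 393.2 on either array, with Cd2 giving most of the T cell sum. Of 4 measured T cell markers, 3 were lower on the marginal zone array, beside 52.2% of all measured genes. Zap70 was at 47.2 and 20.0. Cd3e and Cd4 were under the floor on the marginal zone array and could only come out lower. Cd2 was higher there, at 305.1 and 345.7. The part of T cells in the values below was not tested.

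None of the 8 measured NF-κB genes differed by 2-fold between the populations. By the brightest measured probe set of each gene, 0 of 8 passed 2-fold in the follicular direction, where the background over all 7695 measured genes was 4.86%, and 0 of 8 passed 2-fold in the marginal zone direction, against 4.39%. With backgrounds this low, a count of 0 among 8 genes does not set them apart from other genes. The differences were small, and most had the same sign. Nfkb2, Rel, Nfkbia, Relb, Ikbkb and Rela had lower signals in marginal zone cells, and Nfkbib and Nfkbie had higher ones. The median log2 ratio of the 8 genes was -0.34, beside -0.03 for all measured genes, of which 52.2% were lower in marginal zone cells. The 6 measured B cell markers had a median of -0.35, with 4 of 6 lower, Cd79b at -0.93 and Cd79a at -0.77 among them. The other 2 were higher, Blk at 1.14, the largest difference of that list, and Ms4a1 at 0.10. The 8 genes ran from -0.46 to 0.20, and 20.8% and 67.0% of measured genes lay below these 2 ends. The whole span was 0.66, beside the SD of 0.43 between probe sets, so neighbours in the order could not be separated. Only Nfkb2 lay farther from 0 than 1 such SD, as did 41.5% of all measured genes.

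**Figure D1:**
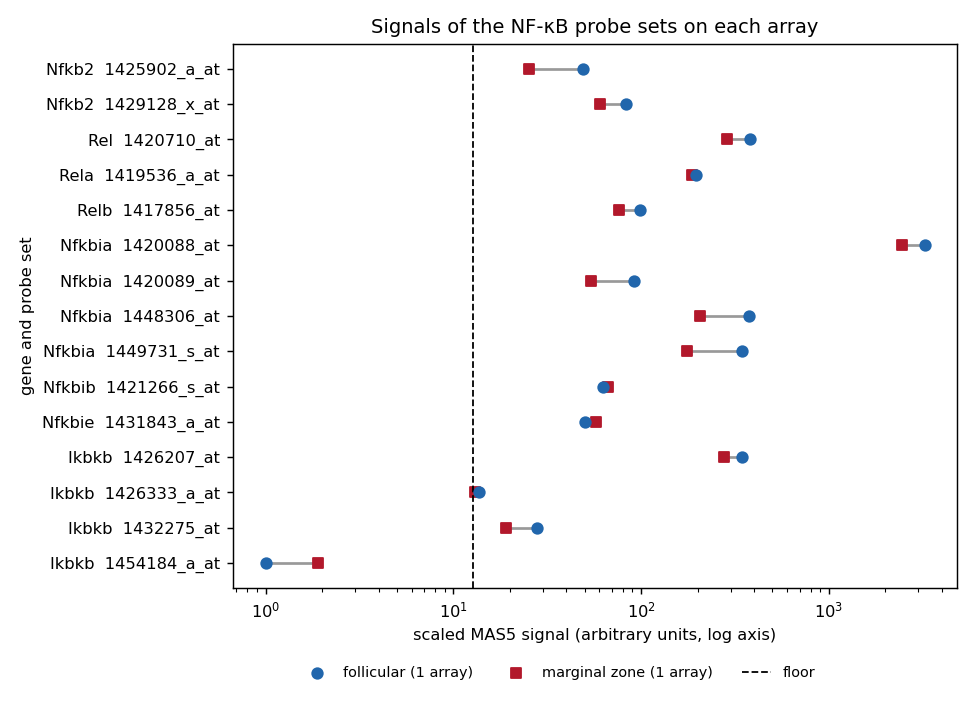
Scaled MAS5 signal (log axis) of the 15 probe sets of the 8 genes, with 1 circle for the follicular array and 1 square for the marginal zone array joined by a line; the dashed line is the floor of 12.7. In 12 of the 14 measured probe sets the square lies to the left of the circle, and the lowest Ikbkb probe set lies under the floor on both arrays.

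Among the Rel family subunits, 4 of 4 measured genes had the lower signal in marginal zone cells, beside 52.2% of all measured genes. The amounts ran from near nothing to almost 2-fold. Nfkb2, the precursor subunit of the alternative arm, was read by a pair of probe sets. Probe set 1425902_a_at gave Nfkb2 signals of 48.9 in follicular and 25.2 in marginal zone cells, a log2 ratio of -0.95. Probe set 1429128_x_at gave Nfkb2 signals of 83.1 and 60.4, a log2 ratio of -0.46. Both pointed the same way, and the SD between them was 0.35. The suffix _x_at marks probes that may also bind other transcripts, and _a_at marks probes shared by transcripts of the same gene. The first of them sat close enough to background that its ratio shrank to -0.10 when the floor was raised to the 75th percentile of all signals.

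Relb, the usual partner of processed Nfkb2, was at 99.2 and 76.6, a log2 ratio of -0.37 from 1 probe set. Rel, which encodes c-Rel, a subunit typical of lymphocytes, was at 380.8 and 286.1, a log2 ratio of -0.41. Rela, which encodes the widely expressed transactivating subunit p65, was at 195.0 and 185.6, a log2 ratio of -0.07, with 46.8% of measured genes lower. Rela was thus the subunit with nearly equal signals, while Nfkb2, Rel and Relb were 1.30-fold to 1.94-fold higher in follicular cells over their 4 probe sets. Each difference of Rel and Relb was smaller than the SD between probe sets of a gene.

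The inhibitors did not move together. Nfkbia, which encodes IκBα, the inhibitor that is destroyed and remade fastest after a signal, was lower in marginal zone cells by all 4 of its probe sets. Probe set 1448306_at gave Nfkbia signals of 375.9 in follicular and 206.3 in marginal zone cells, a log2 ratio of -0.87. Probe set 1449731_s_at gave Nfkbia signals of 344.9 and 174.8, a log2 ratio of -0.98, the largest difference among the 14 measured probe sets of the members. Probe set 1420089_at gave 92.2 and 53.9, a log2 ratio of -0.77. The brightest Nfkbia probe set, 1420088_at, gave 3232 and 2457, a log2 ratio of only -0.40.

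The choice of probe set therefore set the size of the Nfkbia difference, from 1.32-fold to 1.97-fold, but not its direction. The mean over its 4 probe sets was -0.75 with an SD of 0.25, a 1.69-fold higher signal in follicular cells. The mean for Nfkb2 was -0.71, or 1.63-fold. By the mean of probe sets, Nfkbia and Nfkb2 were 2 of 8 genes at least 1.5-fold higher in follicular cells, against a background of 14.5%. By the brightest probe set the count was 0 of 8, against 15.8%. Over single probe sets, 4 of 14 passed 1.5-fold in this direction, against 15.9%, but 3 of the 4 belong to Nfkbia and are not independent.

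Nfkbib, which encodes IκBβ, a slower inhibitor of the same dimers, was at 62.9 and 66.5, a log2 ratio of 0.08. Nfkbie, which encodes IκBε, was at 50.3 and 57.7, a log2 ratio of 0.20. Each was read by 1 probe set, and each difference was under the SD between probe sets. Nfkbia was the one inhibitor of the 3 with the lower marginal zone signal.

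**Figure D2:**
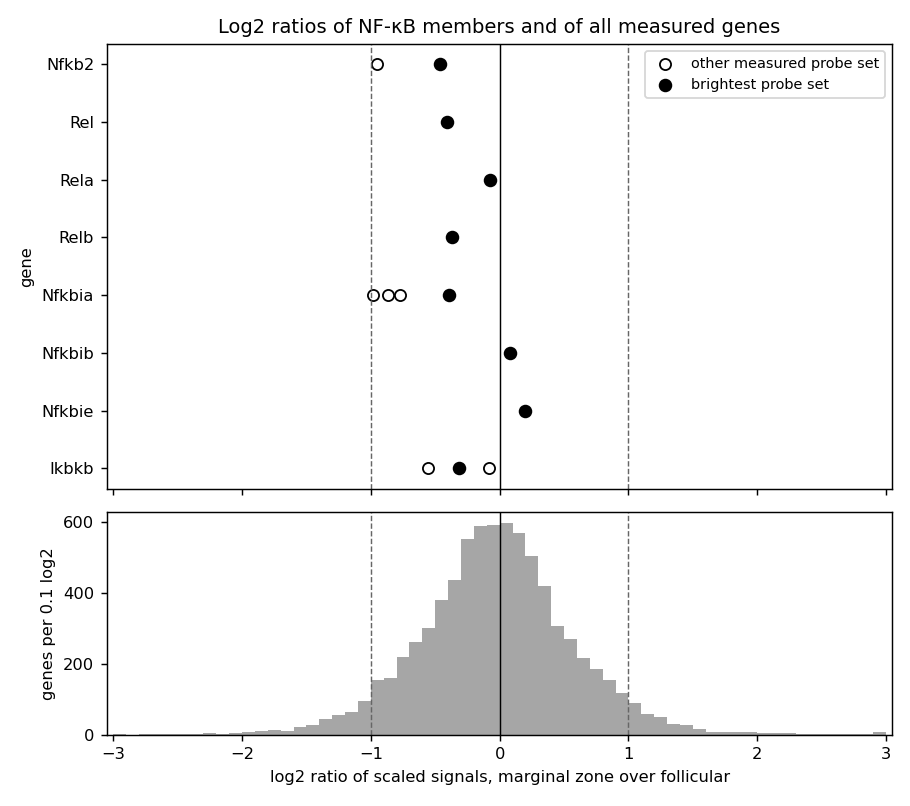
Upper panel, log2 ratio (marginal zone over follicular) for each measured probe set by gene, with the brightest probe set filled and the others open. Lower panel, number of the 7695 measured genes per 0.1 log2, with ratios beyond 3 in either direction placed in the end bars; dashed lines mark 2-fold. The 4 Nfkbia probe sets lie between -0.98 and -0.40, and no member passes the dashed lines.

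Ikbkb, which encodes IKKβ, the catalytic subunit that phosphorylates IκB in the classical arm, had 4 probe sets. The brightest, 1426207_at, gave Ikbkb signals of 344.8 and 277.8, a log2 ratio of -0.31. Probe set 1432275_at gave 28.0 and 19.0, a log2 ratio of -0.56, and 1426333_a_at gave 13.7 and 13.0, both just above the floor. The last, 1454184_a_at, was at 1.0 and 1.9 and was not measured. The 3 measured probe sets of Ikbkb were all lower in marginal zone cells, with an SD of 0.24 between them.

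The promoter matches can be set beside these ratios. Of the 6 measured genes with a promoter window, Nfkb2, Rel and Nfkbia held a match and were lower in marginal zone cells, Nfkbie held a match and was higher, and Rela and Nfkbib held none and lay at -0.07 and 0.08. Over all measured genes with a window, the 332 with a match had a median log2 ratio of -0.05 and the 5939 without one a median of -0.02. At least 2-fold higher in follicular cells were 6.63% with and 4.63% without a match, and in marginal zone cells 6.33% and 4.07%. A match thus went with no common direction across the array.

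Upstream of the kinase, every measured gene of the antigen receptor and TAK1 arm had a lower marginal zone signal by its brightest probe set. This list held 13 genes that carry B cell receptor and Toll-like receptor signals to the IκB kinase, of which 10 were measured. By the brightest probe set all 10 were lower in marginal zone cells, beside 52.2% of all measured genes. None passed 2-fold, and the median log2 ratio was -0.33. Ube2v1, named here for its nearly equal signals, was at 127.7 and 124.3. Its log2 ratio was -0.04, so its sign depends on the scaling. Bcl10, the adaptor that joins the receptor-proximal scaffold to the kinase, was at 329.8 and 175.0, a 1.88-fold higher follicular signal, with 3 probe sets from -0.91 to -0.64. Prkcb, the protein kinase C isoform of this arm in B cells, had signals of 969.5 and 627.9 from its brighter probe set, while the other gave a log2 ratio of -0.16. Btk, the kinase that activates phospholipase C gamma, was at 127.0 and 84.4. Ube2n, the enzyme that builds the ubiquitin chains that recruit TAK1, was at 54.8 and 35.0. Map3k7, which encodes TAK1 itself, was picked once its values had been seen, because its 3 measured probe sets disagreed in direction, from -0.32 to 0.14.

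In the alternative arm, 5 of 8 measured genes were lower and 3 higher in marginal zone cells, beside 52.2% of all measured genes lower. The median was -0.54, and 1 of the 8 passed 2-fold in the follicular direction, beside 4.86% of all genes. That gene was Birc3, a ubiquitin ligase that keeps the arm's kinase at a low level, at 932.5 and 397.9, a 2.34-fold higher follicular signal, with a log2 ratio of -0.63 from its dimmer probe set and -0.93 as the mean of both, short of 2-fold. Birc2, its close relative, was at 139.8 and 80.7. Map3k14, the kinase of the arm that triggers Nfkb2 processing, was at 24.5 and 14.4, and both of its probe sets were lower in marginal zone cells, at -0.77 and -0.70. Cd40 was the exception among the genes named, at 103.5 and 179.9, with probe sets at 0.80 and 1.10. The other receptors of the list were picked after seeing their values. The BAFF receptor gene Tnfrsf13c was at 243.0 and 152.9, the lymphotoxin receptor gene Ltbr at 25.9 and 27.5, and the TNF receptor gene Tnfrsf1b at 83.6 and 114.7, where a dimmer probe set gave a log2 ratio of -0.64.

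Around the kinase complex, signals went both ways. Tank, an adaptor of the IKK-related kinases, was at 105.6 and 355.0, by its 1 probe set, a signal 3.36-fold higher in marginal zone cells, and the largest log2 ratio of the pathway lists. Tbk1, the IKK-related kinase that binds TANK, was at 464.8 and 768.9, 1.65-fold higher there, with probe sets at 0.73 and 0.75. Ikbkg, the regulatory subunit NEMO, had nearly equal signals of 67.3 and 66.6. Its log2 ratio was -0.01, but 0.04 with scaling to the median, and it was also above 0 with no scaling. Traf3ip2, an adaptor of interleukin-17 signals, was at 81.1 and 61.4. Of the 4 measured genes of this list, 1 passed 2-fold in marginal zone cells, beside 4.39% of all genes, and the median was 0.36. The IKK-related pair Tank and Tbk1 thus had higher marginal zone signals where Ikbkb had lower ones.

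The atypical IκB proteins act in the nucleus. Bcl3, a coactivator for dimers that lack their own activation domain, was at 37.9 and 11.8, the latter under the floor, so its follicular signal was at least 2.99-fold higher. Its log2 ratio shrank to -1.05 when the floor was replaced by a pseudocount of the same size. Nfkbiz was nearly equal at 440.1 and 412.0, with its other probe set at 0.03. Ankrd33b, an ankyrin-repeat gene whose place among these proteins is not established, was at 185.6 and 526.9, a marginal zone signal 2.84-fold higher. The 3 measured genes of the list had a median of -0.10.

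Among genes that degrade IκB or build linear ubiquitin chains, 5 of 6 measured had the higher marginal zone signal by their brightest probe set, beside 47.8% of all genes. For 2 of the 5, Fbxw11 and Skp1, another measured probe set had the opposite sign. Their median was 0.26 and none passed 2-fold. Rbck1 (HOIL-1) and Sharpin, accessory subunits of the linear ubiquitin ligase, were at 44.3 and 68.4 and at 382.5 and 478.5. Otulin, which removes linear chains, was at 557.2 and 381.5. Fbxw11, an IκB ubiquitin ligase subunit, was at 792.6 and 1117 by its brightest probe set, but another gave -0.21 on the log2 scale. Skp1, a subunit of the same ligase named here for its disagreement, was at 0.15 and -0.56 by its 2 probe sets.

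Of 13 measured negative regulators, 8 were lower and 5 higher in marginal zone cells, beside 52.2% of all measured genes lower, and the median was -0.24. Commd1 counted as lower and Zfand5 as higher by the brightest probe set, but each had a measured probe set of the opposite sign. Nkiras1 was under the floor in marginal zone cells and could only come out lower. Only the ubiquitin ligase Itch passed 2-fold, at 77.6 and 35.8, a follicular signal 2.17-fold higher, where 4.86% of all genes passed. Its log2 ratio of -1.12 became -0.76 with the floor at the 75th percentile and -0.90 with the pseudocount, both short of 2-fold. Otud7b, a deubiquitinase of the alternative arm, was at 35.5 and 19.5. Tnip1, a ubiquitin-binding partner of A20, was at 318.9 and 177.7, or 1.80-fold. Pias1, an E3 SUMO ligase, was at 196.9 and 126.0. Tnfaip3, which encodes A20, a classical feedback target picked after seeing its values, was at 13.0 and 14.0, near the floor on both arrays. Nuclear partners were close to equal, with a median of -0.06 over 7 genes. Of these, the acetyltransferase Crebbp differed most, at 145.5 and 96.2. The coactivator Ncoa3 was at 99.8 and 86.9, the deacetylase Hdac1 at 145.3 and 155.4, and Nfkbil1 at 13.9 and 12.4.

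Genes reported as NF-κB targets went both ways. Of 34 measured, 13 were lower and 21 higher in marginal zone cells, where 47.8% of all measured genes were higher, with a median log2 ratio of 0.22. Il10, Traf1, Ccl5, Vcam1, Cd80 and Cxcl10 were under the floor in follicular cells, so they could only come out higher in marginal zone cells. Bcl2l1 and Lta were under it in marginal zone cells and could only come out lower. The split of the list therefore depends in part on the floor. It depends on the probe set too. Cflar, Xiap and Gadd45b counted as higher by their brightest probe set, and Irf4 as lower. Each also had a measured probe set of the opposite sign. Past 2-fold in the marginal zone direction were 4, beside the background of 4.39% of all genes, and 1 passed it in the follicular direction, beside 4.86%. Il10, an anti-inflammatory cytokine, had signals of 2.9 and 42.2, the former under the floor, which puts the marginal zone signal at least 3.33-fold higher. The growth regulator Myc was at 78.6 and 196.8, and the hyaluronan receptor Cd44 at 286.5 and 712.2. Ebi3, a cytokine subunit, was at 20.9 and 47.1, and its ratio shrank to 0.04 with the floor at the 75th percentile. The one past 2-fold in follicular cells was Stat5a, picked for that reason, at 34.2 and 15.7. These genes respond to other factors too, and the lists were chosen with earlier results of these data known, so the counts describe these arrays and not NF-κB activity.

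**Figure D3:**
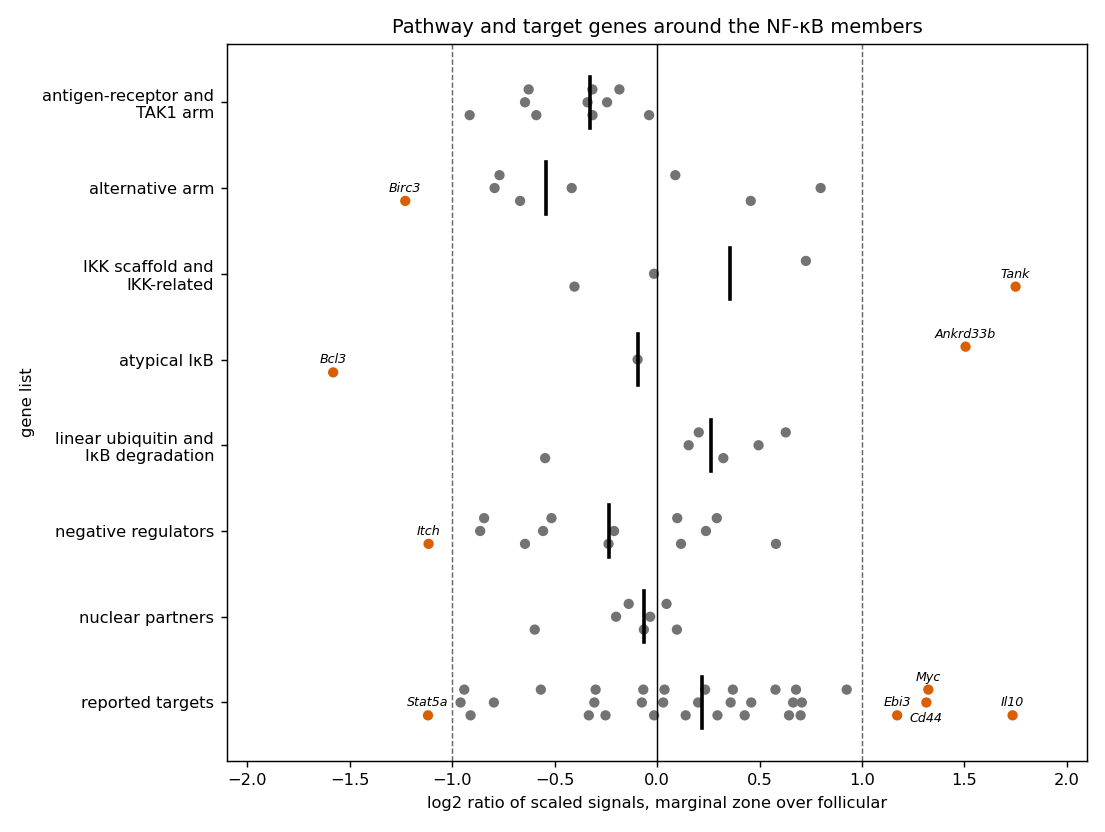
Log2 ratio (marginal zone over follicular) for each measured gene of 8 lists around the members, 1 point a gene by its brightest probe set; black bars are list medians, dashed lines mark 2-fold, and genes past it are coloured and named. The 10 measured genes of the antigen receptor and TAK1 arm all lie left of 0, while 21 of 34 reported targets lie to the right. Genes under the floor on 1 array, among them Il10 and Traf1, could only fall on the side of the other array.

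Under 8 other scalings and floors, each of the 14 measured probe sets of the members that could still be measured kept its sign, and 6 of 8 genes stayed lower in marginal zone cells. The log2 ratios of the 4 Nfkbia probe sets stayed at -0.34 or lower. A floor cannot turn a sign and the scalings moved ratios little, so the kept signs are no evidence of stability, and they say nothing about mice or sorts.

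**Figure D4:**
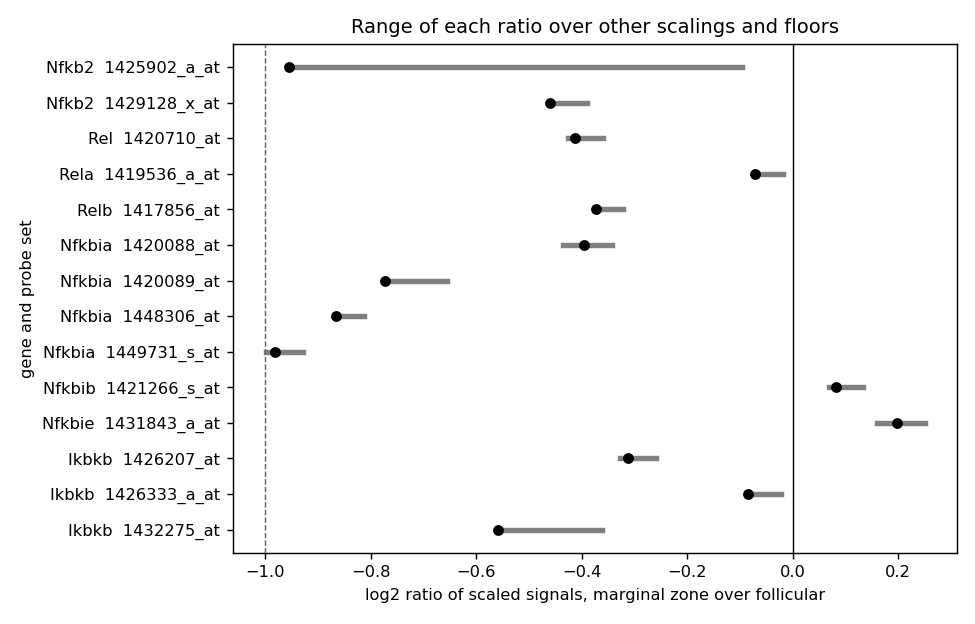
Log2 ratio (marginal zone over follicular) for each of the 14 measured probe sets as reported (point), and its range over 8 other scalings and floors (bar); the dashed line marks 2-fold. The bars stay on their side of 0, and the longest, for Nfkb2 1425902_a_at, runs from -0.95 to -0.10.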

How the data were processed

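The deposited table held 1 intensity per probe set for each of 2 arrays, follicular and marginal zone B cells. The authors computed them with MAS5, per the submitters' processing notes. The version, scaling target, detection calls and genome build were not given in the sources used here. Here, arrays were scaled to one trimmed mean (2% removed at each end), with a floor at the median of all values. Genes took their brightest measured probe set. Of 22626 probe sets, 20380 had 1 gene in the platform annotation, and 20351 of these matched RefSeq by Entrez identifier. Differences are sizes set against 2-fold, computed with Python 3.11.15, numpy 2.4.6 and pandas 2.3.3. Steps were tested on simulated data. The members and lists were chosen with earlier results of these data known. All members were named, and up to 4 genes per list with the largest absolute log2 ratio. Alternatives covered scaling, floor, probe set and threshold.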

Additional observations from a re-analysis of the deposited data

How the results depend on the processing

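The count of NF-κB genes past the threshold was 0 under each of the 13 alternatives, which included thresholds of 1.5-fold and 3-fold. Their median log2 ratio stayed between -0.35 and -0.29. No measured probe set of the members reached 2-fold as reported. Other probe set rules, other floors and the 3-fold threshold could therefore only return 0, and the unchanged count is no evidence of stability. Genes past 2-fold over the pathway and target lists numbered 10 of 85 measured (9.25% of all genes), 17 of 97 with the floor at the 25th percentile (24.2%), 5 of 58 with it at the 75th (6.86%), 34 of 85 at a 1.5-fold threshold (29.4%) and 2 of 85 at 3-fold (1.73%). With no floor 21.5% of all genes passed 2-fold. Of the 45 single ratios, Ikbkg and Fbxw11 changed sign under some alternative. No paired analysis was possible because each population had 1 array. No array could be left out for the same reason, and the number of arrays limits every value.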
